A study of Mus musculus with 36 samples.

Results

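The 6 genes Hoxc4, Hoxc5, Hoxc6, Hoxc8, Hoxc9 and Hoxc10 of the mouse HoxC cluster were followed over 7 days of differentiation of embryonic stem cells into spinal motor neurons. They were taken from the 51912 gene IDs of the mouse count and abundance tables by the symbol of their Ensembl ID, and all 6 were found. Polyadenylated RNA of HM1 cells, a mouse embryonic stem cell line, was sequenced at 12 time points, namely days 0, 0.5, 1, 1.5, 2, 2.5, 3, 3.5, 4, 5, 6 and 7. Each has 3 libraries labelled as bioreps, which makes 36. Every culture had bFGF at 10 ng/ml from day -3, and on day -1 bFGF with the GSK3 inhibitor CHIR99021 at 5 µM, the TGF-beta receptor inhibitor SB431542 at 10 µM and the BMP receptor inhibitor DMH1 at 2 µM, so the day 0 libraries, which are labelled control, carry that treatment too. From day 0 on, the cells were kept in N2B27 medium with 100 nM retinoic acid (RA) and 500 nM of the Smoothened agonist SAG. All libraries come from 1 cell line grown as a mixed monolayer, and no untreated culture at the later times was analysed here. Whether replicates came from separate differentiations is not stated in the labels, so p-values measure only the spread between these samples.

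Hox genes encode homeodomain transcription factors that give cells their position along the head to tail axis. They lie in 4 clusters, HoxA to HoxD, and in the embryo the genes at the 3′ end of a cluster are in general switched on earlier and further forward than those at the 5′ end, an order called collinearity. In the spinal cord RA favours 3′ genes, while FGF, Wnt, Gdf11 and the Cdx factors favour more 5′ ones. There Hoxc4, Hoxc5, Hoxc6 and Hoxc8 are known for brachial levels, where Hoxc6 is tied to limb-innervating motor neurons and Hoxc8 to motor pools of the caudal brachial cord. Hoxc9 is known for thoracic identity and as a repressor of the more 3′ Hox genes in motor neurons, and Hoxc10 for lumbar identity.

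In GENCODE M21 on GRCm38 all 6 genes lie on chromosome 15 on the plus strand, with the 5′ end of the cluster at the lower coordinates. Hoxc10 spans positions 102966796 to 102971893, Hoxc9 102976439 to 102985099, Hoxc8 102990607 to 102994111 and Hoxc6 102998257 to 103011881. Hoxc5 is annotated from 102967443 to 103017429 and Hoxc4 from 103018934 to 103036852. The long span of Hoxc5 comes from a 615-base transcript whose exon 1 lies inside exon 1 of Hoxc10, where both genes share 166 exonic bases (102967443 to 102967608). No other pair of the 6 shares exon sequence, and none overlaps an exon on the other strand. The 6 proteins share the DNA-binding homeodomain, whose coding sequence is the homeobox. The stretch that codes for the end of the homeodomain, with the recognition helix that contacts DNA, is shown for 5 of the genes from the GENCODE transcripts. Capitals mark the 28 of 60 positions at which these 5 are not all alike, and lower case the positions they share.
Hoxc4: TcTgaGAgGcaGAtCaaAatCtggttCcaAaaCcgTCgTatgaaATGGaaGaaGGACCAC
Hoxc6: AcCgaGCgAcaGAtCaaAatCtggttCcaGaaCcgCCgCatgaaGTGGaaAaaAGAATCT
Hoxc8: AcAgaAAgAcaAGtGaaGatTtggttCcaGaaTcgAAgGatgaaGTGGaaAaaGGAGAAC
Hoxc9: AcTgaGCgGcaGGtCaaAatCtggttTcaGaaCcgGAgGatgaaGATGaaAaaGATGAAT
Hoxc10: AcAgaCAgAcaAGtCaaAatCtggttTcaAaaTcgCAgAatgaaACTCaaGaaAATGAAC
These stretches lie in the last coding exon of each of the 5 genes, at 103035783 to 103035842 for Hoxc4, 103010874 to 103010933 for Hoxc6, 102992691 to 102992750 for Hoxc8, 102984050 to 102984109 for Hoxc9 and 102970968 to 102971027 for Hoxc10. Over the whole 180-base homeobox, neighbours in the cluster were alike at 71.1% (Hoxc4 and Hoxc5), 77.8% (Hoxc5 and Hoxc6), 67.8% (Hoxc6 and Hoxc8), 64.4% (Hoxc8 and Hoxc9) and 71.7% (Hoxc9 and Hoxc10) of the bases. Of all 39 Hox genes, the closest homeobox was that of a paralogue in another cluster for 5 of the 6, from 80.0% for Hoxc8 with Hoxb8 to 84.4% for Hoxc6 with Hoxa6. Hoxc5 was closest to Hoxc6. Hoxc4 and Hoxc6 shared no run of 50 bases with another gene, while 119 of the 3039 such runs of Hoxc5 were also in Hoxc10 (3.92%), so the few reads of Hoxc10 and a part of those of Hoxc5 depend on how the authors' counting split them. For Hoxc8 and Hoxc9 the shared runs were 0.432% and 1.44%, spread over 521 and 447 other genes.

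The libraries held 26567321 to 35757989 counts each, so 3 counts corresponded to 0.0839 to 0.113 CPM (counts scaled to the library total), and mitochondrial genes took 0.949% to 1.92%. Of 32047 genes with at least 1 count, 17990 were tested, among them 5 of the 6 HoxC genes. Hoxc10 had too few reads. Markers of the caudal epiblast (T, Nkx1-2, Cdx2 and Wnt3a) summed to 542 to 595 TPM at day 0 and to at most 2.06 TPM at day 7. Motor neuron markers (Isl1, Mnx1, Lhx3, Chat and Slc18a3) were highest at day 3, at 207 to 219 TPM, and were back at 12.7 to 15.1 TPM at day 7. At day 7 the sums of 6 pan-neuronal markers were 2643 to 2841 TPM and 3408 to 3564 TPM for 5 glial markers (Fabp7, Slc1a3, Nfia, Gfap and Aldh1l1). Most of the glial sum was Fabp7, with a mean of 3188 TPM. In these bulk samples fewer cells of a type and less RNA per cell cannot be told apart. In the fits between day 7 and day 0, 51.7% of the called genes were higher. In limma on log2(TPM + 1) 63.5% were, and there the median of all genes was 0.28, against 0.05 in the main edgeR fit. No called HoxC difference changed its direction between the scales.

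Over the course the mean summed level of the HoxC genes was higher at each time point than at the one before, and the genes shared unequally in it. Summed over the 6 genes, the level was 18.8 ± 1.11 TPM (SD, n = 3) at day 0, 70.2 ± 1.05 at day 1.5, 199 ± 3.51 at day 3 and 387 ± 6.80 at day 7. Hoxc4 held 56.7% ± 3.40 of that sum at day 0, 75.4% ± 0.685 at day 1.5 and 46.1% ± 1.00 at day 7. Hoxc6 went from 14.3% ± 1.96 at day 0 to 38.5% ± 1.33 at day 7, the largest gain in share. Hoxc8 held 14.3% ± 0.975 at day 0, 1.33% ± 0.181 at day 2.5 and 4.74% ± 0.641 at day 7. The mean share of Hoxc9 was at most 1.16% and that of Hoxc10 at most 0.114%.

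**Figure D1:**
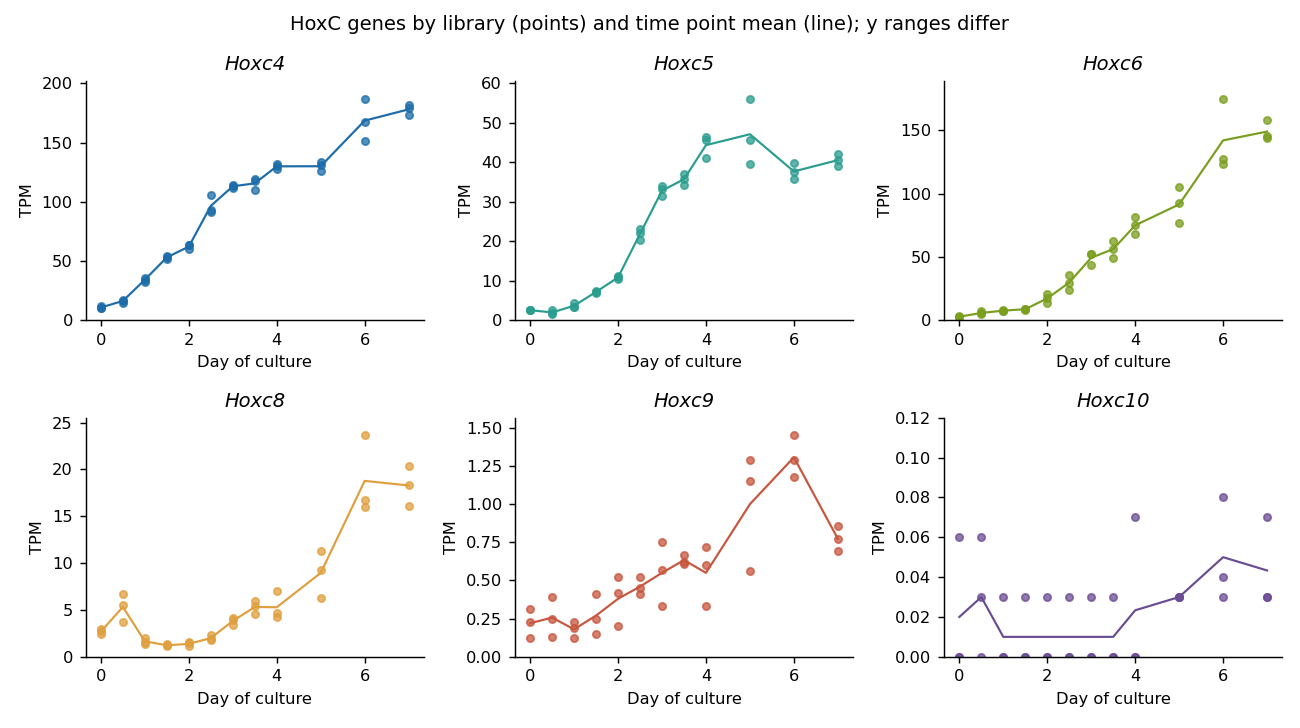
Level of each HoxC gene in TPM (y axis, a range of its own in each panel) against the day of culture (x axis); points are the 36 libraries and lines join the means of 3. The means of Hoxc4 and Hoxc6 at day 7 are 178 and 149 TPM, Hoxc5 is highest at day 5 and lower at day 6, Hoxc8 has a peak at day 0.5 and a trough at day 1.5, Hoxc9 stays at or under 1.45 TPM and Hoxc10 at or under 0.08 TPM.

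Hoxc4, the most 3′ gene of the cluster, was the strongest HoxC gene in every library. It stood at 10.04, 11.77 and 10.15 TPM in the 3 libraries of day 0, at 16.51, 17.15 and 14.82 at day 0.5 and at 33.91, 32.48 and 35.96 at day 1. At day 2 the libraries held 63.33, 63.29 and 59.68 TPM, at day 4 129.98, 132.24 and 127.49, and at day 7 181.89, 173.44 and 178.80. No library of these later times reached down to the range of an earlier one. Against day 0, Hoxc4 rose by 0.60 ± 0.07 on the log2 scale at day 0.5 (approximate SE, adjusted p = 1.8e-08, edgeR's quasi-likelihood test over all genes), by 2.41 ± 0.07 at day 2 (adjusted p = 6.2e-26) and by 3.71 ± 0.07 at day 7 (adjusted p = 5.96e-32, edgeR). Hoxc4 rose from day 0.5 to day 1 by 1.06 (adjusted p = 2.98e-15, edgeR) and from day 2 to day 2.5 by 0.60 (adjusted p = 6.02e-11). From day 3 to day 5 it stayed between 110 and 133 TPM in all 12 libraries and no step between neighbouring times was called, the largest being 0.06 (adjusted p = 0.393, edgeR). In limma on log2(TPM + 1) the step from day 3.5 to day 4 was called (0.17, adjusted p = 0.0379). It then rose again from day 5 to day 6 by 0.28 ± 0.05 (adjusted p = 3.94e-05, edgeR).

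Hoxc4 has 2 annotated transcripts, which differ in where they begin, in an internal exon and in where they end. The short one (1983 bases) begins at position 103034395 and ends at 103036852. The long one (2121 bases) begins at 103018934 with an exon of 108 bases far upstream. It also has an exon of 49 bases (103035267 to 103035315) and ends at 103036405. Their difference in length is the net of all these parts, so length alone does not show which start was used. RSEM's length of a gene is the mean over its transcripts weighted by their level, so the ratio of the deposited counts to the deposited TPM gives that length, after scaling on 161 genes with 1 transcript. The implied length of Hoxc4 was 2008, 2018 and 2019 bases in the libraries of day 0, 1981 to 1989 bases in those of days 1 to 3.5, and 2020 to 2028 bases at days 6 and 7. In 36 genes with 1 transcript of similar length the same measure moved over the 36 libraries by a median of 0.79 bases and by at most 3.28. Read as a mixture of both transcripts, the long one made up 23.2% ± 4.68 of Hoxc4 at day 0, 1.35% ± 0.282 at day 1.5, 7.14% ± 1.77 at day 4 and 30.9% ± 1.66 at day 7. In TPM the long transcript was then at 2.48 ± 0.631 at day 0, 0.716 ± 0.150 at day 1.5, 9.24 ± 2.14 at day 4 and 55.0 ± 3.41 at day 7, while the short one went from 8.17 ± 0.633 to 123 ± 3.84 TPM and stood at 121 ± 4.50 TPM at day 4 already. This reading was chosen after the values were seen, has no test, rests on RSEM's assignment of reads to transcripts, and takes the lengths from GENCODE M21, while the authors' release is not given in the sources used here.

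**Figure D2:**
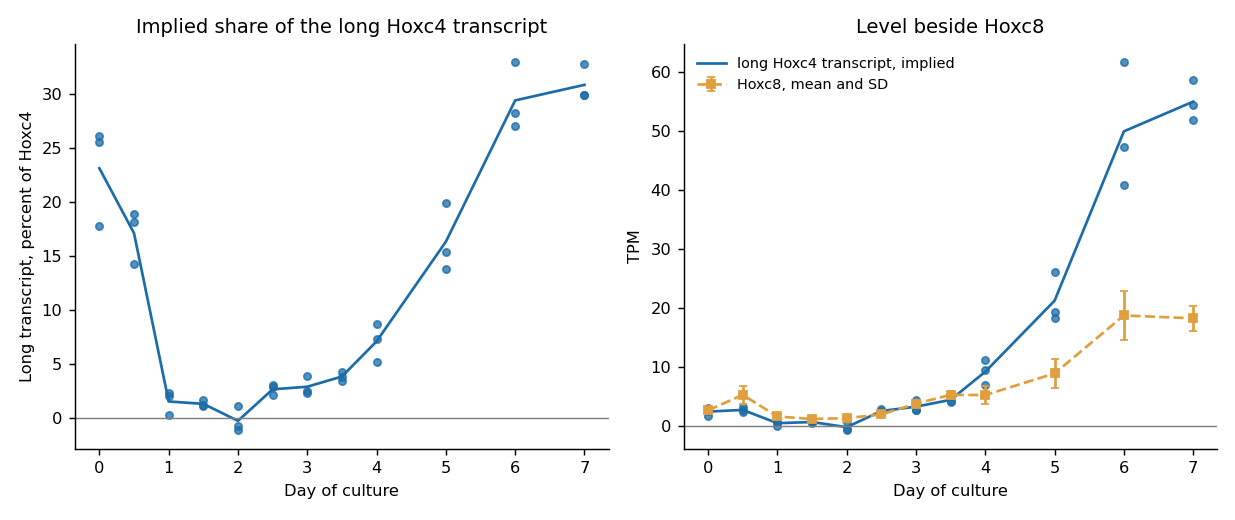
Left, share of the long Hoxc4 transcript implied by the gene's length in the deposited tables, in percent (y axis), against the day of culture (x axis); right, its implied level in TPM with the mean and SD of Hoxc8. Points are libraries and solid lines join means of 3; the share is 23.2% at day 0, near 0 from day 1 to day 3.5 and 30.9% at day 7, while Hoxc8 has means of 5.32 TPM at day 0.5, 1.23 TPM at day 1.5 and 18.3 TPM at day 7. An implied share can fall below 0 by estimation error.

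The start of the short Hoxc4 transcript is the only HoxC start with an entry in the RefSeq promoter table used here. Its 250 bases upstream are shown because the short transcript made up most of Hoxc4 at every time point in the reading above. These bases also lie inside an exon of the long transcript (103033967 to 103035161). They run from 103034145 to 103034394 on chromosome 15 of GRCm38.p6, plus strand, and capitals mark the single match to the core hexamer bound by RA receptors, which is AGGTCA and here stands on the other strand.
Hoxc4 upstream: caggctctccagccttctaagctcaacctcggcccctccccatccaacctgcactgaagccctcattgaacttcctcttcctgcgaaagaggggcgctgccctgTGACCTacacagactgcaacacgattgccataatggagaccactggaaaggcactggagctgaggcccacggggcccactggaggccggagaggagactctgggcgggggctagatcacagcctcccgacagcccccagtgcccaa
Of 32851 RefSeq promoters, 16.3% held that hexamer on either strand in the same window of 250 bases before and 50 after the start. The window held no copies of it as a direct repeat with 2 or 5 bases between, a spacing that only 3 promoters of the table had in each case, and no Cdx motif (TTTATG, in 11.9% of promoters, both strands). A match is a string of letters and not a binding site.

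Hoxc5, the next gene, began lower and levelled off earlier. Its libraries held 2.56, 2.46 and 2.52 TPM at day 0, 2.63, 1.45 and 1.74 at day 0.5, 10.45, 11.15 and 10.80 at day 2, 45.49, 41.08 and 46.30 at day 4, and 38.89, 42.10 and 40.50 at day 7. The highest mean, 47.1 ± 8.33 TPM, was at day 5, where 1 library at 56.04 TPM stood above the others at 39.60 and 45.52. At day 0.5 Hoxc5 was the only HoxC gene that fell, by 0.43 ± 0.13 on the log2 scale (adjusted p = 0.00468, edgeR), and without replicate 2 of day 0 this call was lost (fell by 0.31, adjusted p = 0.054, edgeR). It then rose against day 0 by 0.57 ± 0.11 at day 1 (adjusted p = 2.89e-05), by 2.11 ± 0.09 at day 2 (adjusted p = 4.1e-20) and by 4.12 ± 0.08 at day 5 (adjusted p = 4.23e-30, edgeR). From day 5 to day 6 it fell by 0.44 ± 0.06 (adjusted p = 2.18e-07, edgeR), a step in which Hoxc4, Hoxc6 and Hoxc8 all rose. The TPM of Hoxc5 is less certain than its counts, because its implied length went from 1694 to 2970 bases between libraries with the share of reads given to the 615-base transcript. The rise from day 3 to day 3.5 shows this, being 0.37 ± 0.06 on counts (adjusted p = 1.43e-05, edgeR) and 0.12 on log2(TPM + 1) (adjusted p = 0.414, limma).

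Hoxc6, known for its part in the limb-level motor columns, had the largest rise of the cluster. It stood at 3.13, 2.55 and 2.35 TPM in the libraries of day 0, at 5.41, 7.10 and 4.44 at day 0.5, at 8.20, 8.58 and 9.02 at day 1.5, at 52.49, 43.38 and 51.98 at day 3 and at 145.41, 143.66 and 157.77 at day 7. Day 0 and day 0.5 did not overlap, and neither did day 3 and day 7. Hoxc6 rose against day 0 by 1.15 ± 0.27 at day 0.5 (adjusted p = 0.000603), by 2.67 ± 0.23 at day 2 (adjusted p = 2e-12) and by 5.51 ± 0.19 at day 7 (adjusted p = 1.43e-23, edgeR). Its rise was not even over the course. Between day 0.5 and day 1.5 neither step of 12 hours was called (0.39 with adjusted p = 0.147 and 0.29 with adjusted p = 0.248, edgeR). Both were called without the filter on low counts, at the same sizes of 0.39 and 0.29 (adjusted p = 0.000236 and 0.00512, edgeR). The ranges of days 0.5 and 1 overlapped in TPM. From day 1.5 to day 3 each step rose, by 0.84, 0.75 and 0.68 (adjusted p = 0.000161, 0.00014 and 0.000288, edgeR). From day 3 to day 5 the mean of Hoxc6 went on from 49.3 to 91.4 TPM. No single step there was called (0.18, 0.31 and 0.30 with adjusted p = 0.312, 0.0663 and 0.0634, edgeR). Without the filter on low counts each of them was (adjusted p = 0.0134, 3.83e-06 and 7.26e-07, edgeR). The sizes hardly changed there (0.18, 0.30 and 0.31), so these calls do not come from larger differences. In TPM the ranges of days 3 and 3.5 overlapped, as did those of days 4 and 5. From day 5 to day 6 it rose by 0.51 ± 0.13 (adjusted p = 0.000918, edgeR), and replicate 3 of day 6, at 174.87 TPM beside 127.35 and 123.68, was the highest library of the course.

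Hoxc8 did not follow its 3′ neighbours. It stood at 2.93, 2.77 and 2.39 TPM at day 0 and at 5.57, 6.67 and 3.71 at day 0.5, then at 1.40, 2.03 and 1.53 at day 1 and 1.11, 1.35 and 1.22 at day 1.5. At day 2 the libraries held 1.11, 1.53 and 1.49 TPM, at day 3 3.90, 4.17 and 3.41, at day 5 11.26, 6.31 and 9.28, at day 6 16.70, 15.99 and 23.62 and at day 7 18.36, 20.41 and 16.08. The ranges of days 0, 0.5 and 1 did not overlap with each other, and those of days 1.5 and 2 lay wholly below day 0. Hoxc8 rose against day 0 by 0.93 ± 0.22 on the log2 scale at day 0.5 (adjusted p = 0.000478, edgeR) and fell from day 0.5 to day 1 by 1.66 ± 0.23 (adjusted p = 3.86e-07, edgeR). At day 1.5 it was below day 0, by -1.12 ± 0.26 (adjusted p = 0.000301, edgeR). The lower level was still called at day 2.5 (-0.60, adjusted p = 0.0261, edgeR), but not when 1 of 4 libraries was left out: replicate 1 or 2 of day 0 (-0.53 with adjusted p = 0.0873 and -0.58 with adjusted p = 0.0597) or replicate 2 or 3 of day 2.5 (-0.54 in both, with adjusted p = 0.0773 and 0.0802, edgeR). It was also not called in limma on log2(TPM + 1) (-0.31, adjusted p = 0.128) or on log2(TPM + 0.1) (-0.42, adjusted p = 0.0789). At day 3 the libraries all lay above those of day 0 in TPM, but the difference was not called (0.28 ± 0.23, adjusted p = 0.265, edgeR). In limma on log2(TPM + 0.1) it was called (0.49, adjusted p = 0.0401). Later it rose against day 0 by 0.74 ± 0.22 at day 3.5 (adjusted p = 0.0027), by 1.43 ± 0.21 at day 5 (adjusted p = 1.8e-07) and by 2.39 ± 0.20 at day 6 (adjusted p = 8.06e-13, edgeR). The call at day 4 (0.63, adjusted p = 0.00967, edgeR) rested on replicate 3 of that day, at 6.97 TPM beside 4.69 and 4.20, and without it was 0.38 with adjusted p = 0.138.

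The early peak of Hoxc8 came while the markers of other cell types in the culture also moved, and their part in it was not tested. At day 0.5 all 4 caudal epiblast markers had fallen, to a sum of 79.7 to 109 TPM, and 4 of 10 markers of paraxial and lateral mesoderm had risen with none lower, from a sum of 12.7 to 15.2 TPM to one of 27.4 to 28.3. Of all genes 27.6% were higher and 26.7% lower at day 0.5. At day 1, when Hoxc8 had dropped, the mesoderm sum was 25.1 to 29.5 TPM and the caudal epiblast sum 12.4 to 13.9 TPM. No marker of either list was at 0 in all 3 libraries of a time point.

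Hoxc9 stayed near the limit of detection. It had 15, 9 and 5 counts in the libraries of day 0 (0.31, 0.23 and 0.12 TPM), 31, 20 and 13 at day 3, 45, 39 and 57 at day 6 (1.29, 1.18 and 1.45 TPM) and 27, 32 and 29 at day 7 (0.69, 0.86 and 0.77 TPM). The libraries of day 6 lay above all those of day 0, and so did those of day 7. Against day 0, Hoxc9 rose by 2.16 ± 0.39 at day 6 (adjusted p = 6.62e-06, edgeR) and by 1.42 ± 0.41 at day 7 (adjusted p = 0.00195, edgeR). With all libraries and the filter, the earliest edgeR call was at day 3 (1.10, adjusted p = 0.0191, edgeR), and it was lost without replicate 3 of day 0 (0.82, adjusted p = 0.106) or replicate 1 of day 3 (0.79, adjusted p = 0.136, edgeR). At day 2.5 (0.89, adjusted p = 0.0614, edgeR) Hoxc9 was called without the filter on low counts (adjusted p = 0.0432), with the 6 libraries only (0.0371), without replicate 1 of day 0 (0.0294, edgeR) and in limma on log2(TPM + 0.1) (adjusted p = 0.023). The call at day 4 (0.99, adjusted p = 0.0348, edgeR) was lost without replicate 2 or 3 of day 0 (adjusted p = 0.0639 and 0.161) or replicate 1 or 3 of day 4 (adjusted p = 0.149 and 0.0817, edgeR). The drop from day 6 to day 7 in these few counts was not called (-0.74 ± 0.33, adjusted p = 0.125, edgeR). Hoxc10, the most 5′ gene followed here, had 0 counts in 17 of the 36 libraries, at most 2.05 counts in any and 24.15 in all. Every library was thus under 3 counts, and no level could be set apart from 0 at this depth. It was at 1 or more counts in all 9 libraries of days 5, 6 and 7. Single libraries of days 0, 0.5 and 4 also held 2 counts, so no onset can be read from this. In 4 libraries its count was not whole.

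Of the 5 genes tested, 3 were higher at day 0.5 than at day 0 (27.6% of all genes were) and 1 was lower (26.7%). At day 1 the counts were also 3 and 1 (31% and 31.5% of all genes), likewise at day 1.5 (37.8% and 31.1%), day 2 (36.7% and 36.2%) and day 2.5 (38% and 37.1%). At day 3, 4 genes were higher (39.2%) and none was lower. From day 3.5 on all 5 were higher, beside 39.4% of all genes at day 3.5, 41% at day 4, 42.2% at day 5, 43.9% at day 6 and 44.1% at day 7. The 11 comparisons share the 3 libraries of day 0. Hoxc4 and Hoxc6 were higher in all 11 of them, Hoxc5 was lower at day 0.5 alone, and Hoxc8 lower from day 1 to day 2.5.

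**Figure D3:**
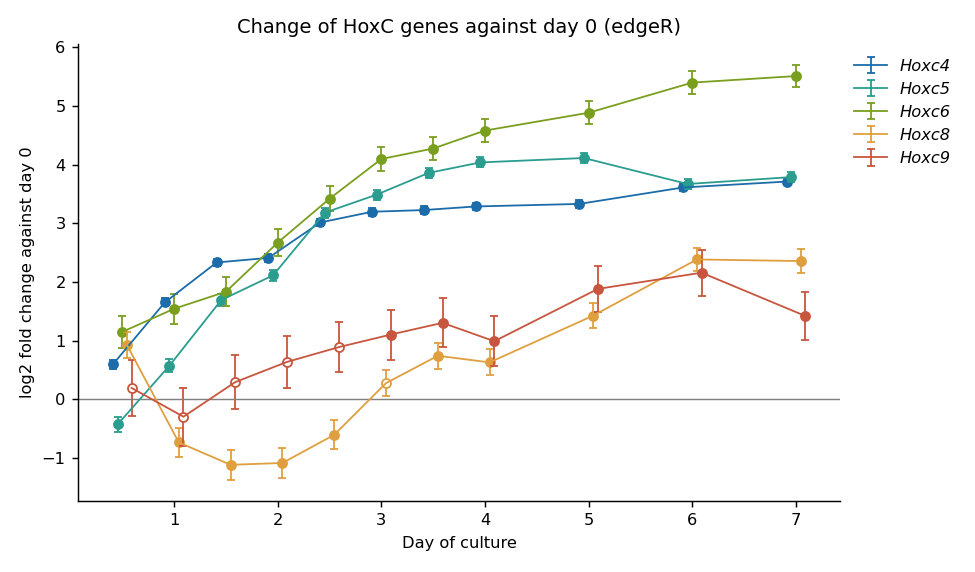
Log2 fold change of the 5 tested HoxC genes against day 0 (y axis, edgeR) at each later time point (x axis, day of culture); bars are the approximate standard error, the genes are offset slightly along x, filled points passed the adjusted p of 0.05 and open points did not. Hoxc6 reaches 5.51 at day 7, Hoxc4 and Hoxc5 reach 3.71 and 3.79, and Hoxc8 lies below 0 from day 1 to day 2.5.

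Between neighbouring time points 2 or more HoxC genes were called at each step up to day 3, and again from day 4 to day 5 and from day 5 to day 6. Steps lasted 0.5 day up to day 4 and 1 day after it, so their sizes do not compare directly. From day 0.5 to day 1, Hoxc4 and Hoxc5 rose (23.3% of all genes did) and Hoxc8 fell (24.3%). From day 1 to day 1.5 the genes that rose were Hoxc4 and Hoxc5 (27% of all genes), from day 1.5 to day 2 Hoxc5 and Hoxc6 (26.1%) and from day 2 to day 2.5 Hoxc4, Hoxc5 and Hoxc6 (24.9%). From day 2.5 to day 3 Hoxc8 joined these 3, so that 4 of 5 rose (18.1%). Hoxc8 did so by 0.88 ± 0.24 (adjusted p = 0.00382, edgeR), and Hoxc4, with 0.18 (adjusted p = 0.00778, edgeR), was no longer called without replicate 1 of day 2.5 (0.14, adjusted p = 0.067). Hoxc5 alone was called higher from day 3 to day 3.5 (21%) and from day 3.5 to day 4 (19.4%). The second of these calls (0.18, adjusted p = 0.0172, edgeR) was lost without replicate 2 of day 3.5 or replicate 3 of day 4 (0.15 in both, adjusted p = 0.0981 and 0.0904), and Hoxc6 was called instead without replicate 2 of day 3.5 or replicate 1 of day 4 (0.39 in both, adjusted p = 0.0421 and 0.036, edgeR). Steps into days 1.5 and 2.5 were larger than those into the whole days that follow, in Hoxc4 (0.68 and 0.60 against 0.08 and 0.18) and in Hoxc5 (1.12 and 1.07 against 0.42 and 0.31). In limma on log2(TPM + 1) the step of Hoxc4 into day 2 was larger and called (0.22, adjusted p = 0.00404), and its ranges in TPM at days 1.5 and 2 did not overlap. On that scale the steps of Hoxc4 were 0.62 and 0.63 against 0.22 and 0.23, and those of Hoxc5 were 0.82 and 0.95 against 0.54 and 0.57. Hoxb5, the paralogue of Hoxc5, alternated more, at 173, 109, 259 and 147 TPM on days 2.5, 3, 3.5 and 4. Mitochondrial genes took 1.17% to 1.21% of counts at day 1.5 and 1.12% to 1.38% at day 2, which overlap, then 1.70% to 1.92% at day 2.5, 1.33% to 1.43% at day 3, 1.53% to 1.69% at day 3.5 and 0.949% to 1.73% at day 4. No label names a batch, and the part of such library differences in the HoxC steps was not tested. From day 4 to day 5, Hoxc8 rose by 0.80 ± 0.20 (adjusted p = 0.00155, edgeR), and so did Hoxc9 (0.89, adjusted p = 0.0465, edgeR), of all genes 21.2%. The call of Hoxc9 was lost without replicate 2 or 3 of day 4 or replicate 1 or 3 of day 5 (adjusted p = 0.072 to 0.214, edgeR). From day 5 to day 6, Hoxc4, Hoxc6 and Hoxc8 rose (24.1%) and Hoxc5 fell (26.4%). None of the 5 was called from day 6 to day 7 in edgeR, where 20.3% of all genes were, and 0 of 5 were in DESeq2. At an unadjusted p under 0.05, 1 of the 5 passed in edgeR, which was Hoxc9. Hoxc9 was also called in limma on log2(TPM + 1) (-0.38, adjusted p = 0.0267) and in a fit of these 6 libraries only (-0.75, adjusted p = 0.0344, edgeR), and Hoxc4 without replicate 3 of day 6 (0.17, adjusted p = 0.0254, edgeR).

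Along the cluster, levels per length at day 7 fell from Hoxc4 to Hoxc10 except for Hoxc5. Hoxc4 was above Hoxc5 in all 36 libraries, with ranges that did not overlap at any of the 12 time points. Hoxc6, although further 5′, was above Hoxc5 in 35 of 36 libraries, and the ranges of both genes overlapped at day 0 only. At day 7 the difference between them was 1.88 ± 0.10 on the log2 scale of TPM (SD, n = 3), in favour of Hoxc6. On CPM, which do not correct for length, the mean of Hoxc5 was above that of Hoxc6 at 7 of the 12 time points. Hoxc6 and Hoxc8 could not be set apart at day 0 and day 0.5, where their ranges overlapped, and differed at the other 10 time points, by 3.63 ± 0.14 at day 2 and by 3.03 ± 0.24 at day 7 on the log2 scale. Hoxc8 was above Hoxc9 in all 36 libraries, by as little as 1.95 ± 0.85 at day 2 and by 4.56 ± 0.17 at day 7, and Hoxc9 was above Hoxc10 in all 36.

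Onset in the sense of a level of 1 TPM held from then on was already passed at day 0 by Hoxc4, Hoxc5, Hoxc6 and Hoxc8, and was never met by Hoxc9 and Hoxc10. The order in which these 4 passed that level cannot be read from the sampled course. With a level of 2 TPM instead, Hoxc4 and Hoxc6 were still at day 0, Hoxc5 was at day 1 and Hoxc8 at day 3. Hoxc5 and Hoxc8 were also above 2 TPM in all 3 libraries of day 0, at 2.46 to 2.56 and 2.39 to 2.93 TPM. Their later days come from a dip below 2 TPM in some libraries, and not from a first rise. The dip was at day 0.5 for Hoxc5 and from day 1 to day 2.5 for Hoxc8. The later climb did have an order, though that of Hoxc4 and Hoxc5 depended on the level chosen. By straight lines between the means, Hoxc4 reached 50% of its highest mean at day 2.39, Hoxc5 at day 2.58, Hoxc6 at day 3.99 and Hoxc8 at day 5.04. When each replicate number was left out these times ranged over 2.36 to 2.44, 2.57 to 2.63, 3.94 to 4.05 and 4.96 to 5.18, without overlap between the genes. The means behind each range share libraries, so it understates the spread between single libraries. At 75% of the highest mean the order of the first pair turned, with Hoxc5 at day 3.43 and Hoxc4 at day 5.09, before Hoxc6 at day 5.40 and Hoxc8 at day 5.52. Hoxc9 reached 50% at day 4.23 (4.04 to 4.42), before Hoxc8 and out of cluster order, in counts of at most 57. These times are a description with no test, and they depend on the time of the highest mean, which was day 7 for Hoxc4 and Hoxc6, day 6 for Hoxc8 and Hoxc9 and day 5 for Hoxc5.

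**Figure D4:**
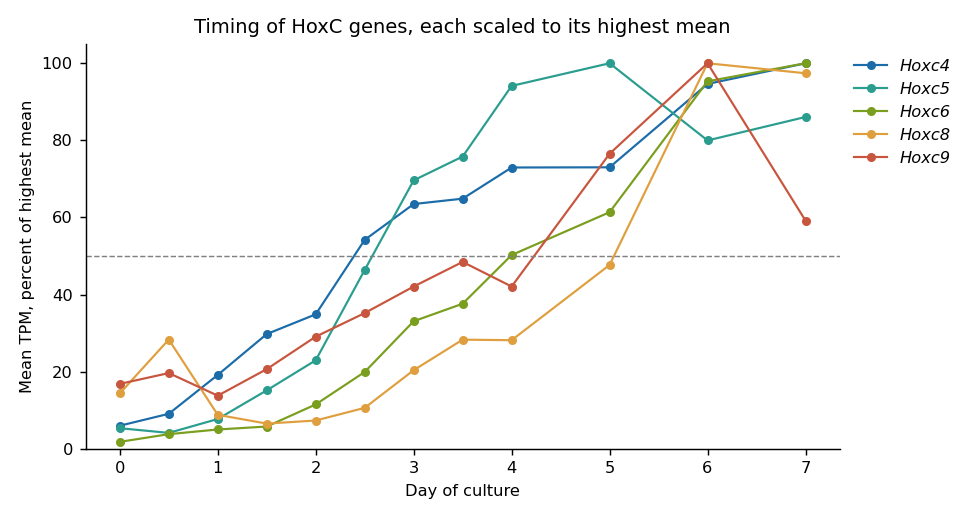
Mean TPM of each of 5 HoxC genes as a percentage of its own highest mean (y axis) against the day of culture (x axis); each point is the mean of 3 libraries and the dashed line is 50%. Hoxc4 and Hoxc5 cross 50% at days 2.39 and 2.58, Hoxc6 at day 3.99 and Hoxc8 at day 5.04, and Hoxc8 starts above its own trough.

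Most genes at the same positions in the other clusters were higher at the end as well. Of the 16 HoxA, HoxB and HoxD genes of paralogue groups 4 to 10, 14 were tested, and 12 of these were higher at day 7 than at day 0 with none lower, at a median of 2.56 on the log2 scale beside 0.05 over all genes. At day 0.5 the counts were 7 higher and 1 lower, and at day 2 they were 11 and 1. Of all genes 27.6%, 36.7% and 44.1% were higher at days 0.5, 2 and 7, and 26.7%, 36.2% and 41.2% were lower. In group 4, Hoxc4 and Hoxb4 were at 10.7 ± 0.969 and 11.6 ± 0.306 TPM at day 0, and at day 7 Hoxc4 was the highest of the group, at 178 ± 4.28 TPM beside 57.2 ± 2.14 for Hoxb4, 30.5 ± 0.660 for Hoxd4 and 26.3 ± 1.57 for Hoxa4. The courses differed too, with highest means at day 2.5 for Hoxb4 (104 TPM), at day 1.5 for Hoxd4 (100.1 TPM) and at day 7 for Hoxc4. In group 5 the order at day 7 was Hoxa5 at 210 ± 9.68, Hoxb5 at 171 ± 6.37 and Hoxc5 at 40.5 ± 1.61 TPM. In group 6, Hoxb6 was at 222 ± 2.22, Hoxc6 at 149 ± 7.69 and Hoxa6 at 66.0 ± 2.07 TPM. Hoxb5 overlaps Hoxb5os, and Hoxd4 overlaps Hoxd3 and Hoxd3os1, so the values of both are uncertain.

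Hoxc8 and Hoxc9 were below Hoxb8 and Hoxb9 at all 12 time points. In group 8, Hoxb8 was at 70.2 ± 8.51 TPM at day 0 and at 349 ± 12.4 at day 7, against 2.70 ± 0.277 and 18.3 ± 2.17 for Hoxc8 and 0.28 ± 0.12 and 11.3 ± 2.93 for Hoxd8. For Hoxb8 no change was called at day 0.5 (0.04 ± 0.08, adjusted p = 0.696, edgeR) or from day 0.5 to day 1 (0.05 ± 0.08, adjusted p = 0.657), and Hoxd8 rose in both steps (0.90, adjusted p = 0.00897, and 1.61, adjusted p = 7.86e-08, edgeR). Of the 14 paralogues tested, Hoxa7 alone was called higher and then lower over these steps, from 4.90 ± 0.800 to 13.4 ± 3.41 and 7.79 ± 0.924 TPM (1.47, adjusted p = 6.29e-08, and -0.61, adjusted p = 0.00477, edgeR). Hoxa7 shares exon sequence with Hoxaas3 on the other strand, which went from 27.8 to 58.9 TPM at day 0.5, and without strand, whose use is not given in the sources used here, reads from the shared part cannot be told apart. In group 9, Hoxb9 was at 138 ± 6.29 TPM at day 0 and 179 ± 12.5 at day 7. The TPM were thus higher at day 7, while the fit on counts had 0.01 ± 0.17 and no call (adjusted p = 0.973, edgeR), so the scales differ for this gene. Hoxa9, Hoxc9 and Hoxd9 had no mean above 1.31 TPM. No gene of group 10 had a mean above 0.213 TPM. Of the genes 5′ of Hoxc10, Hoxc12 was listed at 0 in all 36 libraries and Hoxc11 in 34, while Hoxc13 fell from 0.667 TPM at day 0 to 0.067 TPM at day 7 (adjusted p = 1.93e-06, edgeR). The noncoding RNA Hotair, which lies between Hoxc11 and Hoxc12, and Mir196a-2, a microRNA gene of the HoxC cluster, were listed at 0 in all 36. Another microRNA gene, Mir615, was at 0 in 31 of them. Both microRNA genes were read in libraries of polyadenylated RNA.

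**Figure D5:**
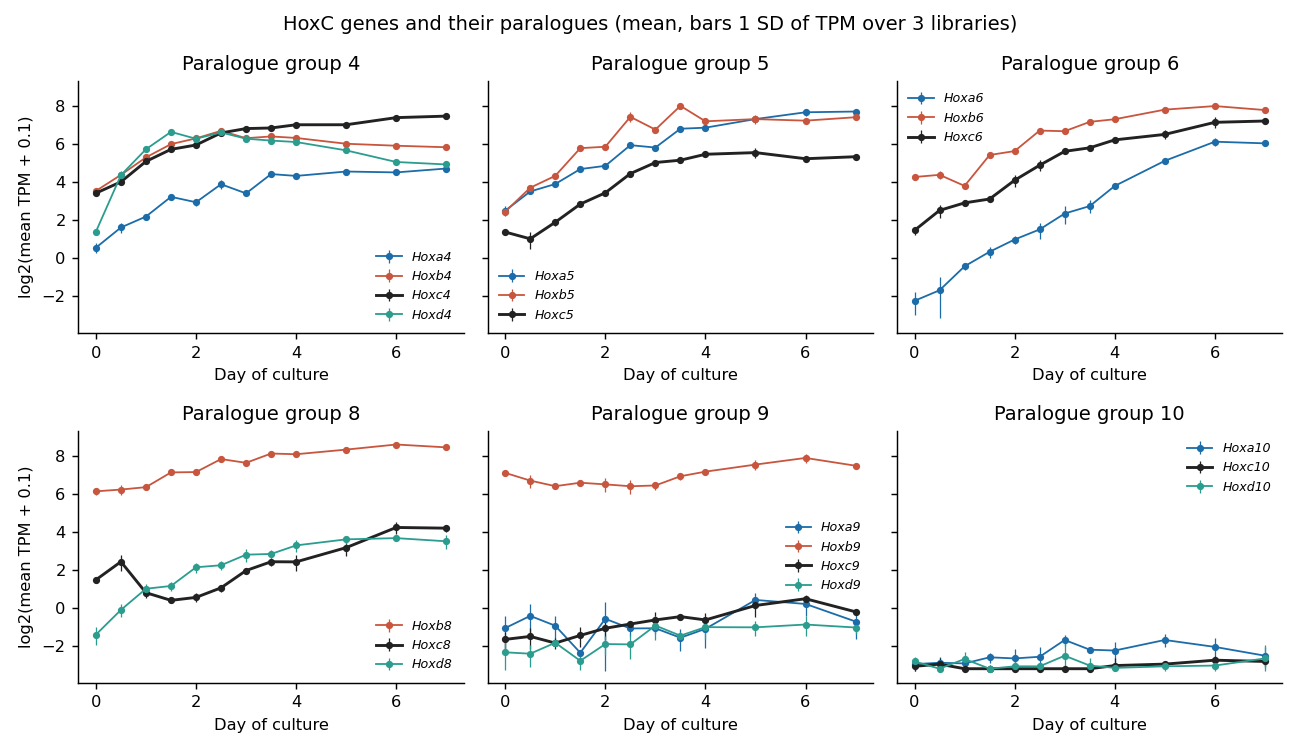
Log2 of mean TPM + 0.1 (y axis) against the day of culture (x axis) for the HoxA, HoxB, HoxC and HoxD genes of 6 paralogue groups; bars are 1 SD of TPM over 3 libraries, and HoxC genes are drawn in black. Hoxc4 ends highest of its group at 178 TPM, while Hoxc8 and Hoxc9 stay below Hoxb8 and Hoxb9 at all 12 time points.

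The genes that work with or upstream of Hox factors changed strongly over the same course. Pbx, Meis and Pknox proteins bind DNA together with Hox proteins, and 6 of their 9 genes were higher at day 0.5, 8 at day 2 and 9 at day 7, with none lower, beside 27.6%, 36.7% and 44.1% of all genes higher. Meis1 went from 0.877 TPM at day 0 to 34.1 TPM at day 0.5 (5.28, adjusted p = 9.15e-33, edgeR) and 204 TPM at day 4, and Meis2 from 6.91 to 85.3 and 198 TPM. Of 15 upstream regulators, 5 were higher and 10 lower at day 0.5, and 4 and 11 at day 2 and at day 7. Of all genes 26.7%, 36.2% and 41.2% were lower at these times, and 5 of 15 higher at day 0.5 is near the 27.6% of all genes. The Cdx factors Cdx1, Cdx2 and Cdx4 were at 81.5, 240 and 37.2 TPM at day 0 and at 0.193, 2.74 and 0 TPM at day 1.5. At day 0.5, the time of the early Hoxc8 peak, they were at 32.0, 42.5 and 5.36 TPM, and at day 7 at 0, 0.083 and 0 TPM. Their part in the course of Hoxc8 was not tested. The RA receptor genes did not move alike. Rara rose from 17.1 to 34.5 TPM at day 0.5 (1.05, adjusted p = 5.8e-16, edgeR) and Rarb from 0.60 to 19.3 TPM (4.98, adjusted p = 1.52e-28), while Rarg, the highest of the 3 at day 0, fell from 112.5 to 40.8 TPM (-1.44, adjusted p = 2.61e-19, edgeR). At day 1.5 they were at 59.8, 47.8 and 10.4 TPM. Gdf11, whose product favours 5′ Hox genes in the embryo, rose from 13.7 TPM at day 0 to 49.4 TPM at day 4. Of 23 Polycomb and trithorax genes, whose products keep Hox clusters silent or active, 12 were higher and 8 lower at day 2, and 9 and 13 at day 7, beside 36.7% and 36.2% of all genes at day 2 and 44.1% and 41.2% at day 7. The 8 lower at day 2 and the 9 higher at day 7 are near those shares. Ezh2, the histone H3 lysine methyltransferase of Polycomb complex PRC2, first rose from 219 TPM at day 0 to 317 TPM at day 2 (0.32, adjusted p = 1.97e-08, edgeR) and was at 107 TPM at day 7 (-1.43 against day 0, adjusted p = 1.04e-25, edgeR).

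Genes of motor columns and pools, which Hox factors are known to pattern, were mostly higher too, 16 of 21 at day 2 with 4 lower and 16 at day 7 with 2 lower, beside 36.7% and 44.1% of all genes higher and 36.2% and 41.2% lower. Foxp1, a Hox cofactor of limb-level motor neurons, went from 14.4 TPM at day 0 to 69.1 TPM at day 4 and 108 TPM at day 7. Aldh1a2, an RA-synthesizing enzyme of the limb-level column, was at 26.3 TPM at day 0.5, 1.51 TPM at day 1.5 and 38.3 TPM at day 4. Etv4, a marker of brachial motor pools that other cells also express, went from 157 TPM at day 0 to 2.45 TPM at day 7 (-6.34, adjusted p = 9.64e-31, edgeR). Motor neuron markers had their highest sum at day 3, before Hoxc6 and Hoxc8 reached 50% of their highest means.

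Markers of several cell types rose beside the HoxC genes between day 0 and day 7, and their part in the HoxC rise was not tested. Of all genes 44.1% were higher at day 7 and 41.2% lower. All 6 pan-neuronal markers were higher, from a sum of 129 to 135 TPM to one of 2643 to 2841, and 4 of 5 glial markers, from 19.8 to 21.9 to 3408 to 3564 TPM, with 1 lower. The lower one was Gfap, and Fabp7 alone had a mean of 3188 TPM at day 7. Of 10 paraxial and lateral mesoderm markers 7 were higher and 2 lower, from 12.7 to 15.2 to 50.9 to 54.7 TPM. Of the 5 neural crest markers 4 were tested, 3 were higher and 1 lower, from 7.9 to 10.6 to 139.5 to 142.75 TPM, and of 5 endothelial markers 3 were higher and 1 lower, from 7.92 to 8.52 to 42.1 to 47.9 TPM. No marker of these 5 lists was at 0 in all 3 libraries of a time point. Blood markers summed to at most 0.01 TPM at day 7 and were highest at day 2, at 25.8 to 49.0 TPM, and Gata1, Hbb-bh1 and Hba-x were at 0 in all libraries of day 7.

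The genes whose course was most like that of each HoxC gene were sought among 10752 genes with a highest mean of at least 10 TPM, by Pearson's r over the 12 time point means of log2(TPM + 1). The libraries behind these points are shared by both genes of each pair. For Hoxc4 they were Samd14 (r = 0.997), Hcfc2, Nol4l, Pogk and Arhgap33, and Samd14 went from 7.24 TPM at day 0 to 125 TPM at day 7. For Hoxc5 they were Ist1 (0.998), Cybc1, Cab39, Rnf111 and Dctn5, and for Hoxc6 Nrep (0.997), Gabarapl2, Ctif, Tcta and B3gat3. Many genes had such rising courses, since 620 genes had an r above 0.95 with Hoxc4, 779 with Hoxc5 and 1487 with Hoxc6. For Hoxc8 the count was 41, led by Tmem108 (0.987), Pja1, Wls, Ppp1r13b and Sh3rf3, and Tmem108 stood at 4.55, 2.88 and 33.0 TPM at days 0, 1.5 and 7. For Hoxc9 the genes were Hist1h2bc (0.975), Ptprf, Wscd1, Unc50 and Sphkap, with 8 above 0.95. Among the HoxC genes themselves, r was 0.96 between Hoxc4 and Hoxc5 and 0.95 between Hoxc4 and Hoxc6. For Hoxc8 it was 0.53 with Hoxc4, 0.57 with Hoxc5, 0.75 with Hoxc6 and 0.83 with Hoxc9.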

How the data were processed

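The labels' protocols name a Qiagen RNeasy Plus Micro kit for RNA and a KAPA mRNA kit for libraries. The submitters' processing notes list bcl2fastq 2.20.0, RSEM and the build GRCm38. No source used here gives the aligner, the annotation release or the use of strand. Values deposited by the authors were RSEM's expected counts per gene (estimated, 6.87% of them not whole) and TPM, which correct for transcript length. Of 51912 gene IDs, 51633 had a symbol in the mouse name table.

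After rounding, counts were fitted with edgeR 4.0.16 (R 4.3.3): filterByExpr, TMM, 1 quasi-likelihood model of 12 groups with 24 residual degrees of freedom, 21 contrasts (each time against day 0, and neighbouring times) and Benjamini-Hochberg adjustment over 17990 genes. A call is an adjusted p under 0.05. To get the approximate SE, the log2 fold change was divided by √F. Levels and their order are in TPM, as mean ± SD of 3. No pair of replicates had identical values. As alternatives, each library was left out in turn, and DESeq2 1.42.0, median-of-ratios scaling, no filter, only the 6 libraries compared, a replicate block, limma 3.58.1 on log2(TPM + 1) and log2(TPM + 0.1), CPM and other onset thresholds were used. Named genes are the members, genes of the fixed lists called at day 2 or set beside a member, and the 5 genes most like each member. The members and lists were chosen with earlier results of these data known. The homeobox stretch of Hoxc5 is not reported here.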

Additional observations from a re-analysis of the deposited data

How the results depend on the processing

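Of 1364 single-gene values under the alternatives, 1293 kept their direction and their side of the threshold, 27 lost and 30 gained a call, and 14 changed sign, all of them for Hoxc8 and Hoxc9 differences that were not called and with 1 library left out. With 1 library left out, Hoxc9 ranged from -0.25 to 0.57 at day 0.5, from -0.58 to 0.077 at day 1 and from -0.15 to 0.67 at day 1.5 against day 0. In its steps it ranged from -0.084 to 0.59 into day 2.5, from -0.10 to 0.48 into day 3, from -0.069 to 0.52 into day 3.5 and from -0.016 to 0.51 into day 6. Hoxc8 ranged from -0.070 to 0.16 into day 2, from -0.36 to 0.014 into day 4 and from -0.14 to 0.16 into day 7. The cause was not tested.

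The number of HoxC genes called moved in a few comparisons. From day 3 to day 3.5, 3 were called without the filter, 2 with the 6 libraries alone and 0 in limma with either pseudocount, in place of 1. From day 3.5 to day 4, 2 were called without the filter, with 6 libraries or in limma on log2(TPM + 0.1), 3 in limma on log2(TPM + 1), and 0 to 2 with a library left out, in place of 1. From day 4 to day 5, 1 was called in place of 2 with 6 libraries, in DESeq2 and in limma on log2(TPM + 0.1), and 1 to 3 with a library left out. From day 6 to day 7, 1 was called in place of 0 with 6 libraries or in limma on log2(TPM + 1), and 0 to 1 with a library left out. At day 4 against day 0, 3 to 5 were called with a library left out, 3 without replicate 3 of day 4.

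On CPM Hoxc5 was above Hoxc6 at 7 time points in place of 0, and at 0 to 1 with a replicate number left out. Onset at 2 TPM moved Hoxc5 to day 1 and Hoxc8 to day 3, after a dip of both below a level they had passed at day 0. The days at 25% and 75% of the highest mean were 1.28 and 5.09 for Hoxc4, 2.04 and 3.43 for Hoxc5, 2.69 and 5.40 for Hoxc6, 3.29 and 5.52 for Hoxc8, and 1.76 and 4.96 for Hoxc9. With a replicate number left out, the day at 50% was 2.36 to 2.44 for Hoxc4, 2.57 to 2.63 for Hoxc5, 3.94 to 4.05 for Hoxc6 and 4.96 to 5.18 for Hoxc8.

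Deviations of same-numbered libraries correlated at -0.09 to 0.11 and those of differently numbered ones at -0.09 to 0.12. Only 9 of 36 libraries were on average closest to their own number. No effect shared by a replicate number was thus seen. Whether such libraries came from the same differentiation cannot be read from this. With the replicate block 9754 in place of 9764 genes were called at day 0.5 and 15320 in place of 15337 at day 7 against day 0, and no HoxC count moved. In limma on log2(TPM + 1) the share of higher calls was 60.9% to 75.7% in 9 of the 21 comparisons, where the main fits had 47.8% to 52.6%, and the median of all genes shifted by up to 0.23 on the log2 scale. Median-of-ratios scaling shifted it by at most 0.03. Depth limits Hoxc9, at 5 to 57 counts a library, and Hoxc10, at 0 to 2.05.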
